A study of Mus musculus with 13 samples.

Results

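STAT3 binding was examined at 6 mouse genes of small GTPase signalling and membrane traffic: Rabggta, Arf6, Rab20, Elmo2, Fgd2 and Stard3nl. A peak was counted for a gene when it overlapped the RefSeq span of the gene widened by 20 kb on each side, and overlapping peaks (1 bp or more in common) from separate libraries were joined as a site. This gave 32 peaks in 13 sites, of 11227 regions in all. Rabggta had 3 sites, Arf6 had 1, Rab20 had 2, Elmo2 had 3, Fgd2 had 4 and Stard3nl had 0. Sites are numbered along the chromosome within each gene. The genes were chosen by measured values of these lists, namely the presence, fold and rank of their peaks with IL-21 and the lack of peaks with IL-4 or in an isotype, so these values are given below as a description, with no test.

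The assay was CUT&RUN, in which an antibody (here against STAT3) tethers a nuclease to its target and the DNA fragments cut free are sequenced. All groups were naive B cells of the mouse spleen that had first spent 96 h in culture with IL-4 (12.5 ng/mL) plus anti-CD40 (1 µg/mL) and had then been sorted as IgM+ or IgG1+ cells. Each sample of 400000 sorted cells next received anti-CD40 for 1 h, together with IL-21 (10 ng/mL) or with IL-4 (12.5 ng/mL). The groups were STAT3 knockout (KO) IgM and IgG1 cells with IL-21, KO IgM and IgG1 cells with IL-4 (1 library each), wild-type (WT) IgM and IgG1 cells with IL-21, and WT IgM and IgG1 cells with IL-4 (2 libraries each). The labels record no IL-4 during the hour with IL-21, so the gain of IL-21 and the loss of IL-4 cannot be told apart. Each fold is an average over the sorted cells, so binding in more cells and more binding per cell cannot be told apart either. The labels do not say how STAT3 was deleted or in which cells, or whether libraries of a group came from separate mice, and peak lists hold no expression values with which to check the cell type or the deletion. The lists held 648 to 1892 peaks in KO cells, 865 to 2034 in WT cells with IL-21 and 623 to 1455 in WT cells with IL-4.

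Small GTPases switch between a GTP-bound active and a GDP-bound inactive form and direct vesicle traffic and the actin cytoskeleton. Guanine nucleotide exchange factors load them with GTP, and a lipid added to the tail of Rab proteins anchors them in membranes. B cells depend on such traffic to take up antigen through the B cell receptor, to deliver it to endosomes for presentation, and to secrete antibody. STAT3 is the main transcription factor activated by the IL-21 receptor, whereas IL-4 acts mainly through STAT6.

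Binding at these genes was concentrated in WT cells given IL-21. Of the 32 peaks, KO cells supplied 1 under IL-21 and 2 under IL-4, and WT cells supplied 27 under IL-21 and 2 under IL-4. The WT IL-21 lists thus held 84.4% of the member peaks, against 41.1% of all 13513 peaks, a pattern for which the genes were chosen. Rabggta, Arf6 and Elmo2 each had a strong site in all 4 WT IL-21 libraries, Fgd2 had 3 weak sites close together in 3 WT IL-21 libraries each, and Rab20 had a weak site in the IgG1 libraries. Of the 13 sites, 11 had a peak in WT cells. Of these, 8 were called in at least 2 WT IL-21 libraries and 3 in all 4, against 9.29% and 2.24% of the 7461 regions found in WT cells. At 2 of them, in Rabggta and beside Elmo2, no WT IL-4 library had a peak, a pattern found at 1.31% of the same regions. These patterns are among those for which the genes were chosen, so nothing is read from the counts. Sites called in a single library made up 38.5% of the 13, against 90.7% of all regions. Over all 21883 protein-coding genes, 0.772% had a region of all 4 WT IL-21 and no WT IL-4 library within 20 kb.

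**Figure D1:**
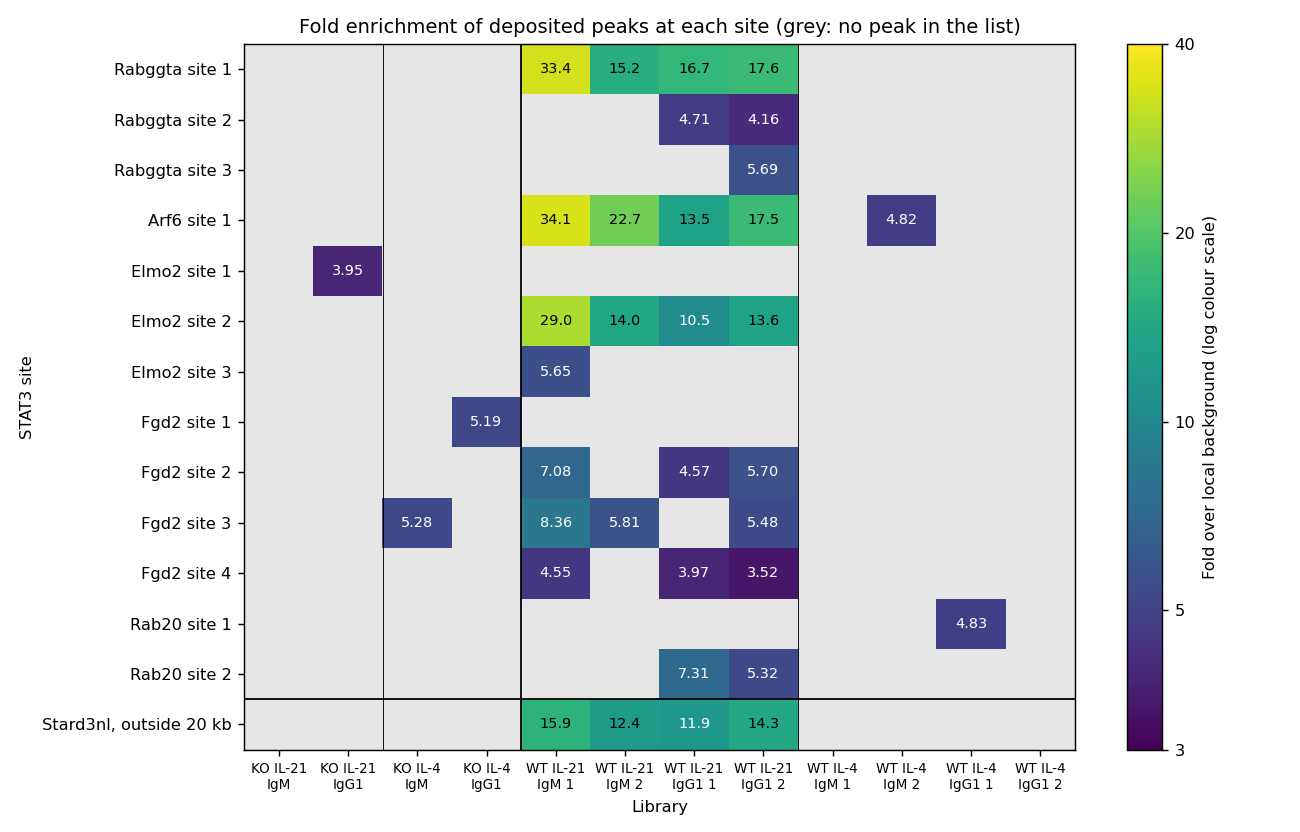
Fold enrichment of the deposited peaks at the 13 sites and at the site beyond the 20 kb limit of Stard3nl (rows), by library (columns); grey marks a list with no peak there, and numbers in the cells are the folds. The 4 WT IL-21 columns hold nearly all peaks, with folds of 10.5 to 34.1 at Rabggta site 1, Arf6 site 1 and Elmo2 site 2 and of 3.52 to 8.36 elsewhere within the limit.

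The first member acts on Rab proteins as a class. Rabggta encodes the alpha subunit of Rab geranylgeranyl transferase, the enzyme that attaches geranylgeranyl lipids to Rab GTPases. Its gene (Gene ID 56187, minus strand) spans positions 55715864 to 55722263 of chromosome 14 on GRCm38.p6, the assembly on which mm10 is based, and site 1 lay over the end from which it is transcribed (55721695 to 55722352). The RefSeq table lists 3 transcription starts for the gene, at 55722263, 55722202 and 55721923, and all 4 summits fell between the last 2 of these. The summits lay 60 to 130 bp downstream of the start at 55722202 and 149 to 219 bp upstream of the start at 55721923. The window around the start at 55721923 held every summit of the site and is therefore shown (RefSeq, GRCm38.p6, chr14:55721874-55722173, minus strand, 250 bases before to 50 after the start). Capitals mark a match to TTCNNNGAA, the palindromic core recognised by STAT dimers.
Rabggta start window: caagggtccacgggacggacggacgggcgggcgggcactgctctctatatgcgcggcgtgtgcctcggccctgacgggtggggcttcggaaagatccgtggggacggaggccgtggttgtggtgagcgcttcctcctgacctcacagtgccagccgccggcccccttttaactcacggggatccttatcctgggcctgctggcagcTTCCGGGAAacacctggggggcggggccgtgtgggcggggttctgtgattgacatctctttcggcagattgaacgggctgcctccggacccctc
The match, TTCCGGGAA, lies at 55721959 to 55721967 and also fits the stricter form TTCCNGGAA. Its centre was 109 to 179 bp from the 4 summits and inside all 4 peaks, which had positions 55721736 to 55722281 in common.

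None of the 4 KO libraries had a peak at this site. The fold is the signal at the summit over the local background, whose source (the same library or a control) is not given. In WT cells it was 33.4 and 15.2 in the IgM libraries and 16.7 and 17.6 in the IgG1 libraries with IL-21. No WT IL-4 library had a peak there. The mean fold with IL-21 was 20.7 ± 8.49 (SD, n = 4 libraries of both isotypes). Ranked by −log10 p within its own list, the peak stood at 14 of 2034 and 23 of 1171 in IgM cells and at 17 of 865 and 27 of 1485 in IgG1 cells, which is within the strongest 2% of each list. The first IgM library was well above the other 3, which lay close together. Fold and −log10 p together fix the number of fragments piled up at a summit and the local background. These were 131 and 89 fragments in the IgM libraries and 75 and 79 in the IgG1 libraries, over backgrounds of 2.95 to 4.92 fragments. For scale, the smallest pileup called in any list was 10 to 12 fragments, so a site with fewer than 10 would appear in no list.

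A pair of weaker Rabggta sites lay upstream of the gene. Site 2 (55724460 to 55724926, summit 2273 bp outside the span) was called in the IgG1 libraries with IL-21 at folds of 4.71 and 4.16, and in no other library. Site 3 (55726359 to 55726575, 4249 bp outside) had a single peak, of fold 5.69, in the second IgG1 library with IL-21. Site 2 ranked at 324 of 865 and 811 of 1485, far below site 1.

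Arf6 and Rab20 are the GTPases among the members. Arf6 encodes an Arf family GTPase of the plasma membrane that governs endocytic recycling and cortical actin. Its site (chromosome 12, 69371451 to 69372587) overlapped the lower end of the short gene (Gene ID 11845, 69372150 to 69375980), with the summit of the strongest peak 311 bp outside the span. The next coding gene, Nemf, was 14638 bp away. No KO library had a peak there. In WT cells the fold was 34.1 and 22.7 in the IgM libraries and 13.5 and 17.5 in the IgG1 libraries with IL-21, a mean of 21.97 ± 8.91 (SD, n = 4). Both IgM libraries were thus above both IgG1 libraries. The first IgM library had the highest fold at 84.4% of the 167 regions called in all 4 WT IL-21 libraries. The share of those regions with both IgM folds above both IgG1 folds is not given here, so no isotype preference is read from this order. The peak ranked at 22 of 2034 and 20 of 1171 in IgM cells and at 29 of 865 and 36 of 1485 in IgG1 cells. Pileups were 105 and 82 fragments in IgM cells and 42 and 55 in IgG1 cells.

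With IL-4, the second WT IgM library had a peak of fold 4.82 at Arf6 (15 fragments, rank 234 of 853), and the other 3 WT IL-4 libraries had none. Because of this peak the site was not counted among those free of IL-4 peaks. Its summit lay 234 to 306 bp from the IL-21 summits, which themselves fell within 72 bp of each other. If a −log10 q of 5 or more, or a fold of 5 or more, was required of every peak, the IL-4 peak dropped out and the members had 3 sites of all 4 WT IL-21 libraries without an IL-4 peak.

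Rab20 encodes a Rab GTPase of endosomes that takes part in phagosome maturation in macrophages. Site 2 lay within the gene (chromosome 8, 11463738 to 11464098, in the span 11453390 to 11478640, Gene ID 19332, minus strand), 14677 to 14827 bp downstream of the annotated start. It was called in both IgG1 libraries with IL-21, at folds of 7.31 and 5.32, and in no KO, WT IgM or WT IL-4 library. The pileups were 22 and 16 fragments, and the ranks 99 of 865 and 631 of 1485. This site and Rabggta site 2 were the 2 member sites with a peak in both IgG1 and neither IgM library with IL-21, and 0 member sites had the reverse. Over the regions found in WT cells the counts were 13 (0.174%) and 93 (1.25%). Rab20 was chosen partly for this pattern, and with 2 libraries per isotype it was not tested. Site 1 (11450731 to 11450990) was a single peak of fold 4.83 in the first WT IgG1 library with IL-4, and it lay nearer to Col4a2, a collagen gene (1699 bp), than to Rab20 (2404 bp).

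Elmo2 and Fgd2 act on the GTPases of the actin cytoskeleton. Elmo2 encodes a partner of DOCK proteins with which it forms an exchange factor for Rac. Site 2 (chromosome 2, 165326530 to 165327065) lay just before the start of the gene (165288031 to 165326479, Gene ID 140579, minus strand), with summits 302 to 354 bp upstream of the most upstream annotated start and within 52 bp of each other. The start window is shown because the site overlaps its first 200 bases (RefSeq, GRCm38.p6, chr2:165326430-165326729, minus strand, 250 bases before to 50 after the start at 165326479). Capitals mark the 22 bases inside the peaks of all 4 WT IL-21 libraries.
Elmo2 start window: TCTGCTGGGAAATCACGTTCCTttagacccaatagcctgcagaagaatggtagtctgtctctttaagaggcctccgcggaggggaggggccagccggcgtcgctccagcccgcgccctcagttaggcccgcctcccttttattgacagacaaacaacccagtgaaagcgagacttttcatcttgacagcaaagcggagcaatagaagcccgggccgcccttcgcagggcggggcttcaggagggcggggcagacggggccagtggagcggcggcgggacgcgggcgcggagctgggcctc
Neither TTCNNNGAA nor TTCCNGGAA occurs in these 300 bases. The 4 summits lay beyond the upstream edge of the window, so its letters do not cover the centre of the site.

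No KO library had a peak at Elmo2 site 2. In WT cells the fold was 29.0 and 14.0 in the IgM libraries and 10.5 and 13.6 in the IgG1 libraries with IL-21, with a mean of 16.8 ± 8.29 (SD, n = 4), and no WT IL-4 library had a peak there. The ranks were 28 of 2034 and 41 of 1171 in IgM cells and 52 of 865 and 53 of 1485 in IgG1 cells, with pileups of 81 and 56 and of 32 and 47 fragments. Both IgM folds were above both IgG1 folds, but the second library of each isotype lay close to the other. As at Arf6, the share of all regions with this order is not given, and no isotype preference is read from it. The other Elmo2 sites were single peaks. Site 1, within the gene (165299321 to 165299594), was called in the KO IgG1 library with IL-21 alone, at a fold of 3.95. Site 3 (165346174 to 165346464, fold 5.65) was called in the first WT IgM library with IL-21, near the edge of the window at 19818 bp from Elmo2 and 5000 bp from Zfp663.

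Fgd2 encodes an exchange factor for Cdc42 that is found in antigen-presenting cells, B cells among them. No site lay within the gene (chromosome 17, 29360904 to 29379535, Gene ID 26382, plus strand) or at its annotated start. Sites 2, 3 and 4 lay in a row beyond its end, with the strongest summits 14142, 16140 and 18666 bp from the span. Neighbouring summits were 1998 and 2526 bp apart. Fgd2 was the nearest coding gene to all 3, and the next in the direction away from Fgd2 was Pim1, a serine/threonine kinase gene, 92584 bp beyond site 4 (named after the values were seen).

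Each of the 3 was called in 3 WT libraries with IL-21, and none of them in WT cells with IL-4. Site 2 (29393523 to 29394595) had folds of 7.08 in the first IgM library and 4.57 and 5.70 in the IgG1 libraries. Site 3 (29395185 to 29396986) had a fold of 5.28 in KO IgM cells with IL-4, and of 8.36 and 5.81 in the WT IgM libraries and 5.48 in the second WT IgG1 library with IL-21. Site 4 (29398017 to 29398585) was the weakest, at 4.55 in the first IgM library and 3.97 and 3.52 in the IgG1 libraries. The mean folds were 5.78 ± 1.26, 6.55 ± 1.58 and 4.02 ± 0.517 (SD, n = 3 libraries each). The pileups were 17 to 24, 17 to 25 and 13 to 17 fragments, and those of site 4 came closest to the smallest called. The first IgM and second IgG1 libraries had all 3 sites. The second IgM library lacked sites 2 and 4, and the first IgG1 library lacked site 3. Over the 196 regions called in exactly 3 WT IL-21 libraries, the second IgM library was the missing one in 24.5% and the first IgG1 library in 68.9%.

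Fgd2 site 3 was also the only site of at least 2 WT IL-21 libraries that had a KO peak. That KO peak (16 fragments, rank 249 of 763) lay 12 to 297 bp from the WT IL-21 summits, and its fold was close to the lowest WT fold of the site. Of the 8 member sites called in at least 2 WT IL-21 libraries, 0 were found in KO cells with IL-21, 1 in any KO library and 1 in WT cells with IL-4. Over all 693 such regions the shares were 9.67%, 18.0% and 21.5%. Fgd2 site 1 was a single peak of fold 5.19 in the KO IgG1 library with IL-4, 13065 bp below the start coordinate and inside Mtch1.

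**Figure D2:**
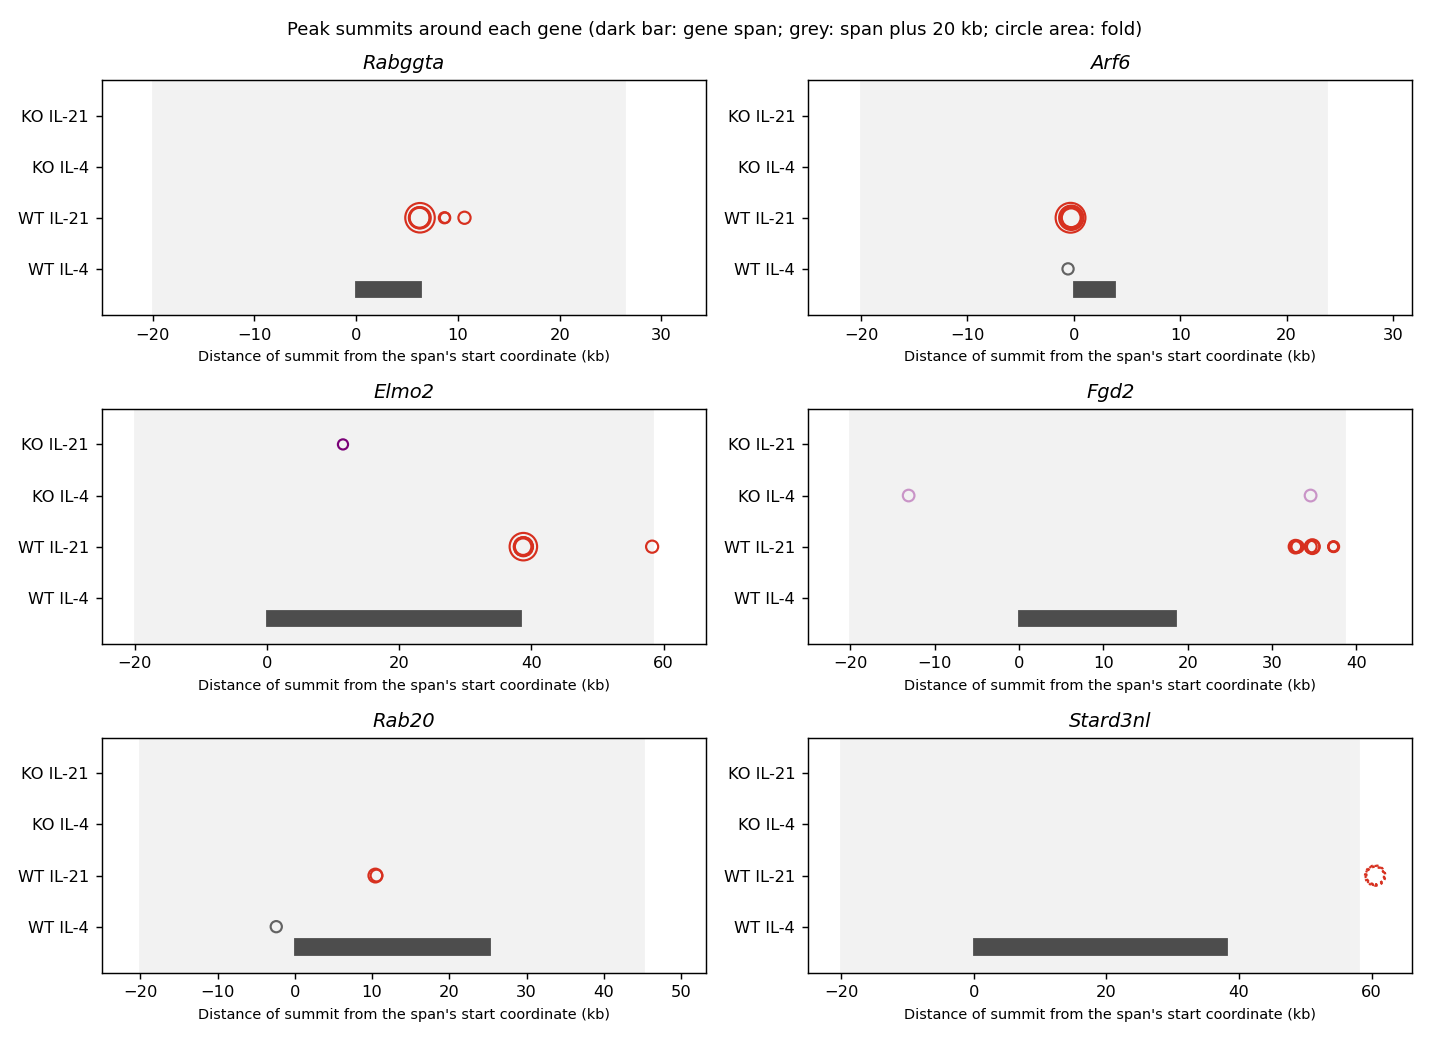
Summits of the peaks around each member, with the distance from the start coordinate of the gene span in kb on the horizontal axis, the 4 groups of genotype and treatment on the vertical axis and circle area in proportion to fold; the dark bar is the gene span and the grey band the span plus 20 kb. The large circles sit at a gene end at Rabggta, Arf6 and Elmo2, and the small ones beyond the end of Fgd2; dotted circles show the site of Stard3nl beyond the band.

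Stard3nl encodes a membrane protein of late endosomes that tethers them to the endoplasmic reticulum. No library had a peak within 20 kb of the gene (chromosome 13, 19357676 to 19395813, Gene ID 76205). The nearest region began 22167 bp above its end (19417980 to 19418577) and so fell just outside the limit, whereas Elmo2 site 3 and Fgd2 site 4 fell just inside it. It lay within the span of the non-coding RNA gene Gm40827 (19395847 to 19425573), and Stard3nl was the nearest coding gene, 22380 bp from the strongest summit. No KO library had a peak there. In WT cells its folds were 15.9 and 12.4 in the IgM libraries and 11.9 and 14.3 in the IgG1 libraries with IL-21, and no WT IL-4 library had a peak. The mean was 13.6 ± 1.84 (SD, n = 4) and the isotypes overlapped. The ranks were 69 of 2034 and 52 of 1171 in IgM cells and 33 of 865 and 35 of 1485 in IgG1 cells. At 42 to 64 fragments the pileups of the 4 libraries differed less than at the other strong sites.

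**Figure D3:**
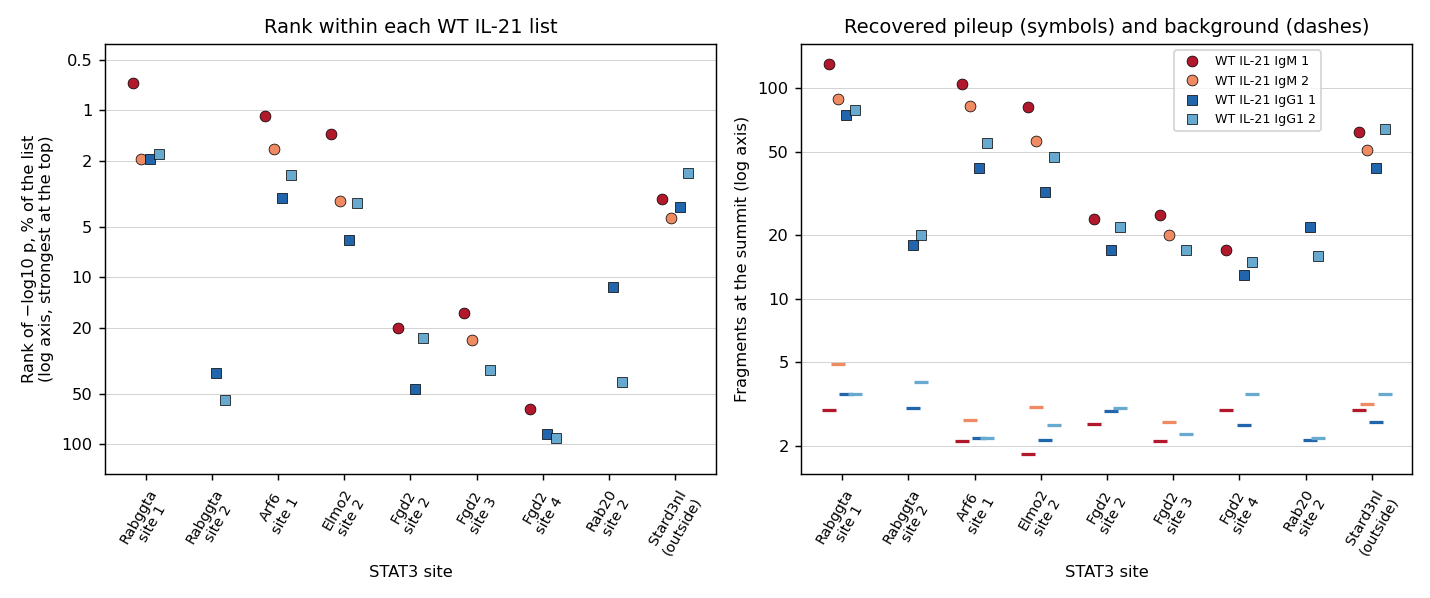
Rank of −log10 p as a percentage of the list (left, log axis with the strongest at the top) and fragments at the summit with the local background as dashes (right, log axis) in the 4 WT IL-21 libraries, for the 8 sites called in at least 2 of them and the site beyond the limit of Stard3nl. Rabggta site 1, Arf6, Elmo2 site 2 and Stard3nl have 32 to 131 fragments, and the remaining sites 13 to 25.

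Among the 167 regions called in all 4 WT IL-21 libraries, Arf6 stood at 6, Rabggta site 1 at 8, Elmo2 site 2 at 18 and the Stard3nl region at 34 in order of mean fold. The median region of the 167 had a mean fold of 8.81, with quartiles of 6.28 and 12.5. By the mean rank of −log10 p they stood at 23, 19, 43 and 41. The 167 include 19 regions called in all 12 libraries, KO cells among them, at mean folds of only 1.39 to 4.70, and 13, 11, 17 and 16 of these were ahead of the 4 named regions by rank. Without the 19, an alternative chosen after the data were seen, the places by rank were 10, 8, 26 and 25, the places by fold did not move, and the median mean fold was 9.45. The ratio of the highest to the lowest of the 4 folds was 2.52 at Arf6, 2.196 at Rabggta, 2.76 at Elmo2 and 1.34 at Stard3nl, against a median of 2.08. The first IgM library had the highest fold at each of the 3 member sites, as it did at 84.4% of the 167 regions, so this order was common among them. Summits lay within 72, 70, 52 and 54 bp in the same order, against a median range of 127 bp with quartiles of 57.5 and 287.5 bp. The ranges at Arf6 and Rabggta thus fell between the quartiles.

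**Figure D4:**
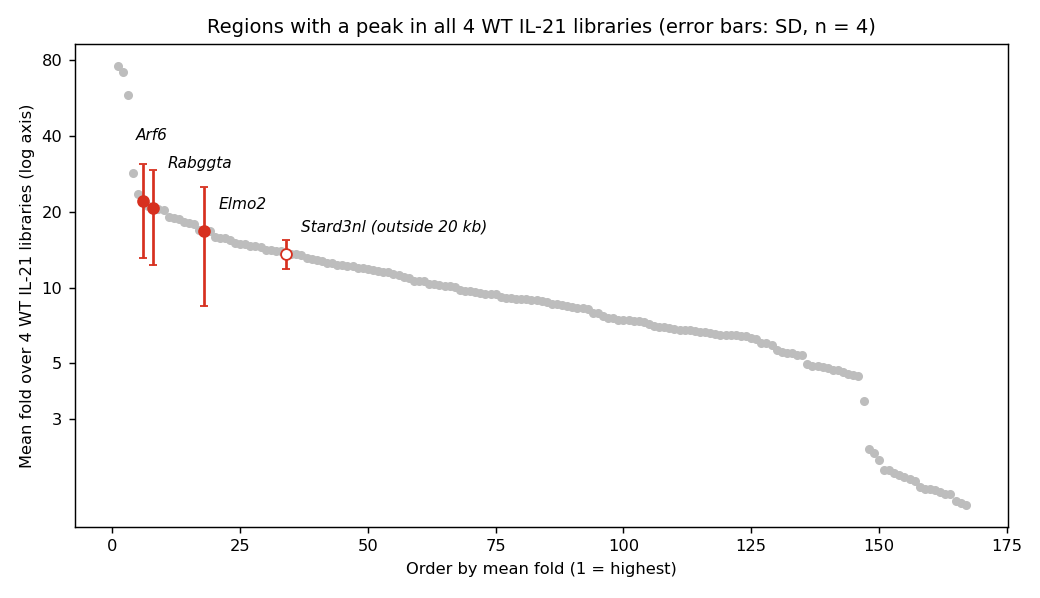
Mean fold over the 4 WT IL-21 libraries (log axis) of the 167 regions called in all of them, in descending order; error bars are SD over 4 libraries and are drawn for the named genes only. Arf6, Rabggta and Elmo2 (filled) and the region outside the limit of Stard3nl (open) lie at orders 6, 8, 18 and 34.

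Isotype means of fold with IL-21 were 24.3 in IgM and 17.2 in IgG1 cells at Rabggta site 1, 28.4 and 15.5 at Arf6, and 21.5 and 12.04 at Elmo2 site 2. Each fold is a value of its own peak list, and the source of its local background is not given. These means are therefore set side by side and were not tested. At Rabggta the order rests on the first IgM library, since the second, at 15.2, lay below both IgG1 libraries. By rank the mean position there was the strongest 1.33% of the list in IgM and 1.89% in IgG1 cells, and without the first IgM library the IgM position was 1.96%. At Arf6 it was 1.39% and 2.89%, and at Elmo2 2.44% and 4.79%. At the Stard3nl region outside the limit the isotypes overlapped, at 3.39% and 4.44% in IgM and 3.82% and 2.36% in IgG1 cells. No isotype preference is read from these positions.

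The Rabggta window was among 27 RefSeq start windows of 300 bases that held the strongest summit of a region called in all 4 WT IL-21 libraries. TTCNNNGAA occurred in 17 of the 27 (63.0%) and TTCCNGGAA in 10 (37.0%), against 8.30% and 1.15% of all 32851 windows. Both motifs are their own reverse complement, so both strands are covered, and every match of the second is also a match of the first. In those 17 the summit was 6 to 266 bp from the nearest match (median 127), and 179 bp at Rabggta. None of the other annotated start windows of Rabggta, Elmo2, Rab20 and Fgd2 had a match. A match is a description of the letters and does not show what the antibody was bound to.

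For each leading member site the most similar region was sought elsewhere in the genome, by presence in the 12 libraries and then by the mean difference in rank percentage. For Rabggta it was the region 495 bp from Gsk3a, which had the same presence in 12 of 12 libraries and differed by 0.399 percentage points on average over 4 shared libraries, at a mean fold of 20.3. For Elmo2 it was a region 2823 bp from Med29 (0.511 points, 4 libraries, mean fold 14.9). These were the closest of 90 regions elsewhere with the same presence. For Arf6, with its IL-4 peak, 4 regions elsewhere matched in presence, and the closest lay 6224 bp from Irf1 (6.05 points over 5 libraries). For Fgd2 site 3 it lay 26735 bp from Bcl11a (9.37 points over 4 libraries), and for Rab20 site 2 within Ube2j1 (15.7 points over 2 libraries).

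Genes of the same pathways were then examined, in a list of 119 others: Rab GTPases with their prenylation enzymes and regulators, Arf GTPases with their regulators, the ELMO-DOCK and Rac genes, the FGD and Cdc42 genes, and genes of contacts between late endosomes and the endoplasmic reticulum. Within 20 kb, 59 of the 119 (49.6%) had a region of any library, 10 (8.40%) a region of at least 2 WT IL-21 libraries and 4 (3.36%) a region of all 4. Over all coding genes these shares were 39.6%, 4.57% and 1.24%. A region of all 4 WT IL-21 and no WT IL-4 library lay near 2 of the 119 (1.68%, against 0.772%), namely Asap1 and Crk. Asap1, a GTPase-activating protein for Arf, had folds of 12.95 and 6.76 in the IgM libraries and 3.22 and 7.79 in the IgG1 libraries at a region 11246 bp outside the gene (chromosome 15, 64074994 to 64076015). Crk, an adaptor that recruits DOCK proteins, had weak peaks within the gene (chromosome 11, 75679070 to 75679723), at 5.65 and 4.43 in the IgM libraries and 4.77 and 4.70 in the IgG1 libraries. Neither region had a KO peak. A region within Dennd4a and a region 4558 bp from Chml were also found in all 4 libraries, each with a peak in the first WT IgM library with IL-4. The region near Chml was weak (mean fold 3.56) and lay nearer to another gene, Opn3 (10 bp).

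Of the 34 other Rab GTPases, 0 had a region in all 4 WT IL-21 libraries, against 1.24% of all coding genes. A region in at least 2 was found for 5 of the 34 (14.7%), against 4.57%, and this was not tested. Rab4b had 2 such regions, and its leading one had peaks in 2 KO libraries, as did that of Rab27a. The leading regions of Rab1b, Rab5a and Rab6a had no KO peak. That of Rab4b lay nearer to Egln2 (146 bp) than to Rab4b (1485 bp). That of Rab1b lay nearer to Yif1a (446 bp) than to Rab1b (11115 bp). The all-gene share counts such regions too. The FGD and Cdc42 list had 0 of 11 genes with a region in all 4 or in at least 2 WT IL-21 libraries. Rabggtb encodes the beta subunit that pairs with the product of Rabggta. It had no region of at least 2 WT IL-21 libraries within 20 kb, like most coding genes. With all-gene shares this low, counts of 0 in lists this short are not read as a result about these genes.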

How the data were processed

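Each of the 12 antibody libraries has its own deposited peak list. Tools named in the submitters' processing notes are MACS2 2.2.7.1, Bowtie2 2.4.1, Trimmomatic 0.39 and deepTools 3.5.1, with build mm10 and no roles. The input sample of the series, from WT B cells, was not analysed here. What served as control and how the yeast spike-in was used is not given in the sources used here. The deposited columns are a fold (the ratio of summit signal to local background), −log10 of p and of q, and a score that follows the −log10 p. The lowest deposited −log10 p was 5.00.

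The peaks used (13513 of 13908) lie on chromosomes 1 to 19, X or Y and were ranked by −log10 p within their list. Gene spans came from RefSeq on GRCm38.p6 and transcription starts and strands from its promoter table, which matched 4 of the 6 members. The pileup n and background b were solved from fold = (n + 1)/(b + 1) and the Poisson probability of more than n fragments. A whole n within 0.001 was found in each list for 100% of the peaks whose −log10 p was under 30, and the solution was tested on simulated data. Most peaks of the strong member sites lie above 30. For these the tolerance was widened in proportion to −log10 p. Depth is otherwise unknown.

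The members, lists and settings were chosen with earlier results of these data known. No hypothesis test between groups was made, since the members were chosen on the contrast described. All sites of the members are named; a pathway gene is named where it has a region in all 4 WT IL-21 and no WT IL-4 library, and any other gene where it holds a site, lies nearer to it or is the closest in pattern. Dennd4a, Chml, Opn3, Rabggtb, Plekhm1, Rab1b, Rab4b, Rab5a, Rab6a, Rab27a, Egln2, Yif1a, Nemf and Pim1 were named after their values were seen. Alternatives were the window, a stricter −log10 q or fold, joining by summits, equal list lengths and leaving out each WT library. Python 3.11.15, pandas 2.3.3 and scipy 1.17.1 were used.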

Additional observations from a re-analysis of the deposited data

Results flagged for a closer look

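Within the 4 WT IL-21 libraries, 12 sets of values at the 3 sites called in all of them were screened for a library far from the other 3. The cutoff would pick out about 1 in 20 sets if the 4 libraries were alike. They were not, as the first IgM library had the highest fold at 84.4% of the 167 regions called in all 4. The genes were also chosen by fold and rank, so the screen only flags values and nothing is concluded from it. The first IgM library stood apart at Rabggta site 1 in fold (33.4), in −log10 p (163) and in rank (the strongest 0.688% of its list). These 3 measures describe the same peak. At Arf6 the summit of the same library lay 311 bp outside the gene span, while the summits of the other 3 libraries lay nearer to the gene, at 69371902 to 69371911. Whether the length of that list, 2034 peaks, bears on these values was not tested.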

How the results depend on the processing

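The count of member sites in all WT IL-21 and no WT IL-4 library (2) and of members with such a site (2, Rabggta and Elmo2) was the same with a window of 5 kb, with summits joined within 250 bp and with 623 peaks from each list. Both counts were 3 with a window of 50 kb, which adds Stard3nl, and 3 when peaks needed a −log10 q of 5 or a fold of 5, which adds Arf6. Leaving out each WT library in turn gave 2 to 4 sites and 2 to 3 members. The 4 sites arose without the second IgM library with IL-21, which adds Fgd2 sites 2 and 4, and 3 arose without the first IgG1 library with IL-21 (Fgd2 site 3) or without the second IgM library with IL-4 (Arf6). Needing only 3 WT IL-21 libraries, a setting chosen after the data were seen, gave 5 sites and 3 members. The pathway count (2 of 119) was 1 with a window of 5 kb, 0 when peaks needed a −log10 q of 5 or a fold of 5, 6 with 3 libraries and 2 to 5 without a library. The 5 arose without the first IgG1 library with IL-21 and 4 without the first IgM library with IL-4. Ranking by fold instead of −log10 p moved the mean position by more than 1 SD at 3 of 8 sites, that of Arf6 to the strongest 0.806%, of Rabggta site 1 to 0.905% and of Rabggta site 2 to 62.3%. The mean position of Rab20 site 2 was 11.4% or 42.5% on leaving out either of its 2 libraries. No paired analysis was possible because the results come from no test. The smallest peaks called had 10 to 12 fragments, and Fgd2 site 4, with 13 to 17, was near that limit.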

Other observations

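Plekhm1, an adaptor of late endosomes and lysosomes on the pathway list, had the highest mean fold of the list's leading regions found in at least 3 WT IL-21 libraries. The region lay 834 bp outside the gene (chromosome 11, 103412803 to 103413957) and had folds of 21.1 and 9.39 in the IgM libraries and 8.88 in the second IgG1 library with IL-21 (13.1 ± 6.92, SD, n = 3). The KO libraries, the WT IL-4 libraries and the first WT IgG1 library with IL-21 had no peak there, so it was not counted among the regions of all 4 libraries. Rab5a, a GTPase of early endosomes, had a region 360 bp from the gene in the same 3 libraries, at 5.61 and 4.90 in the IgM libraries and 4.21 in the IgG1 library. Within 20 kb, 38 of 21883 coding genes (0.174%) had at least 3 regions of at least 2 WT IL-21 libraries each, and Fgd2 was among them.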
